A study of Mus musculus with 12 samples.

Results

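The response of 2 mouse bone marrow stromal cell (BMSC) lines to PTH was compared gene by gene, as the PTH response of Y428F cells minus that of WT cells, each a log2 fold change against vehicle. All 12 libraries entered the comparison, 3 in each of 4 groups, and the genes were those with a total of at least 10 counts over the 12 libraries, 17691 of the 56980 in the deposited matrix. A negative difference means a smaller rise, or a larger fall, with PTH in Y428F cells than in WT cells, and a positive difference the reverse. A gene was called when the adjusted p of this difference was under 0.05, from edgeR's quasi-likelihood test and the Benjamini-Hochberg adjustment across all 17691.

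WT cells were W-20 cells (W-20-17), a murine BMSC line, and Y428F cells were W-20 cells that carried an introduced YAP in which phenylalanine took the place of a tyrosine. Each line received 50 nM PTH or the same volume of PBS (vehicle) for 2 h before bulk RNA-Seq of polyadenylated RNA. The library titles name the Y428F groups, whereas the genotype entry of all 12 samples reads WT. The study's methods describe Y428F lines on 2 Flag-tagged CMV plasmid backbones, with and without a further serine substitution, from which positive clones were selected with puromycin. The titles name Y428F alone, and the study's text names the line of the RNA-Seq comparison by both substitutions. No library with the serine substitution alone was analysed here. Nor was a library of cells with introduced unmutated YAP, so the Y428F substitution and any other difference between the lines cannot be told apart. Library totals were 17127897 to 19057319 counts with a median of 17740980. The sources used here do not say that the 3 libraries of a group came from separate cultures, so p-values measure only the spread between these samples, which may be technical. In bulk RNA, fewer cells of a type and less RNA per cell cannot be told apart.

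PTH acts on stromal and osteoblast lineage cells through the G protein-coupled receptor PTH1R, which raises cAMP and also activates phospholipase C. YAP is the transcriptional coactivator held back by the Hippo kinases MST and LATS, and it acts with the TEAD factors on genes of growth and cell attachment. 2 other routes that matter for stromal cells are BMP signaling through SMAD proteins, with the *Id* genes as classical targets, and serum response factor (SRF) with its coactivators of the MRTF family, which follow the state of the actin cytoskeleton.

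Most of the PTH response had no called difference between the lines. With PTH, 2375 genes changed in WT cells (13.4% of those tested), 1312 upregulated (7.42%) and 1063 downregulated (6.01%). In Y428F cells 2192 genes changed (12.4%), 1170 upregulated (6.61%) and 1022 downregulated (5.78%). The difference in response was called for 73 genes (0.413%), of which 43 had a lower response in Y428F cells (0.243%) and 30 a higher one (0.170%). At an unadjusted p under 0.05 there were 1247 genes, and at an adjusted p under 0.01 with a log2 difference beyond 0.3 there were 22, 16 lower and 6 higher. Leaving out 1 library gave 24 (without Y428F PTH replicate 3) to 89 (without WT PTH replicate 3) called genes. Among the 11218 genes that averaged 2 CPM or more (CPM, counts relative to the TMM-scaled library total), the 95% interval reached a median of 0.24 log2 units to either side, a fold of 1.18. In the plot of the PTH response in both lines, 9 of the 69 such genes with a difference beyond 1 log2 unit were called.

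**Figure D1:**
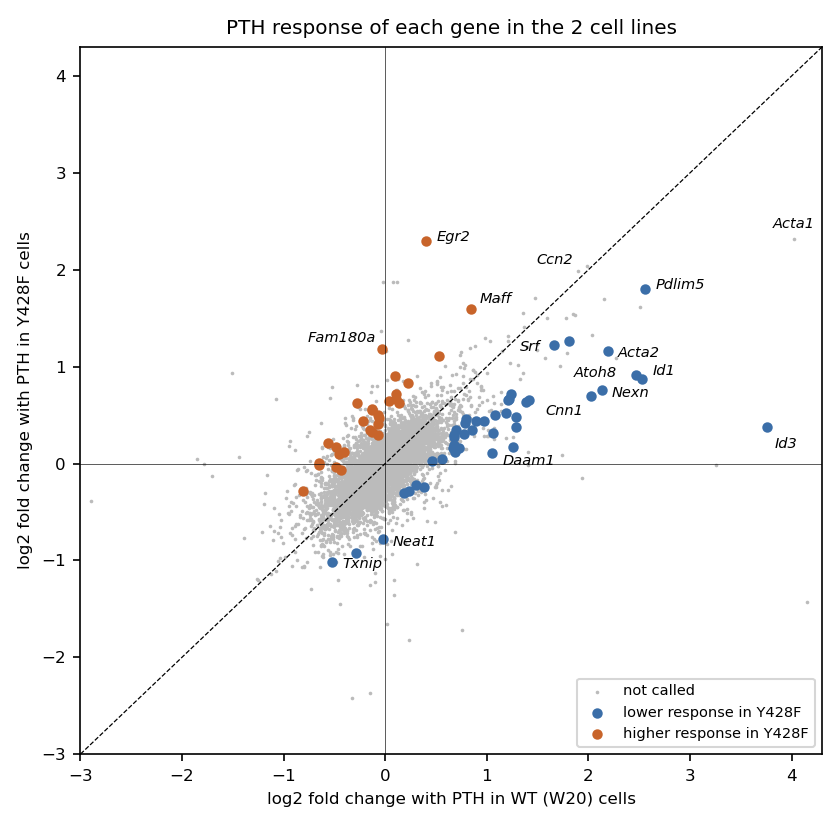
Log2 fold change with PTH in WT cells (x axis) against that in Y428F cells (y axis) for 11207 genes averaging 2 CPM or more, with 72 called genes in color and the dashed line marking equal responses (11 genes lie outside the axes). Genes with a lower response in Y428F cells (blue) lie mostly on the right, upregulated in WT cells, with *Id3* farthest from the line, and genes with a higher response (orange) run from -0.81 to 0.85 in WT cells.

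The BMP target genes *Id3*, *Id1* and *Atoh8* had the largest negative differences in response among the called genes. *Id3*, which encodes an inhibitor of basic helix-loop-helix factors, lies at chr4:135870808-135873066 (plus strand) of GRCm39. It had 3.38, 4.66 and 3.33 CPM in the WT vehicle libraries and 51.6, 49.0 and 52.6 CPM in the WT PTH libraries. The Y428F libraries had 78.5, 71.8 and 76.8 CPM with vehicle and 108, 89.9 and 97.9 CPM with PTH. No groups overlapped, and *Id3* was already higher in untreated Y428F cells than in PTH-treated WT cells. The log2 fold changes were 3.76 in WT and 0.38 in Y428F cells, a difference of -3.38 (standard error 0.13, adjusted p = 2.58e-12, edgeR's quasi-likelihood test).

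*Id1*, of the same family (chr2:152566218-152579544, plus strand), had 1.32, 1.25 and 1.07 CPM in WT cells with vehicle and 6.72, 7.57 and 6.81 CPM with PTH. In Y428F cells it had 23.7, 27.3 and 23.0 CPM with vehicle and 50.7, 40.0 and 44.5 CPM with PTH. The 4 groups were separate, with both Y428F groups above both WT groups. The log2 fold changes of 2.52 and 0.87 differed by -1.66 (standard error 0.20, adjusted p = 0.000233). *Atoh8*, a helix-loop-helix transcription factor gene (chr6:72183161-72212602, minus strand), had 6.24, 5.69 and 6.01 CPM in WT cells with vehicle and 36.3, 31.5 and 31.6 CPM with PTH. The Y428F libraries had 31.1, 34.3 and 37.6 CPM with vehicle and 67.5, 64.6 and 62.1 CPM with PTH. Untreated Y428F cells thus overlapped PTH-treated WT cells. The log2 fold changes of 2.47 and 0.92 differed by -1.55 (standard error 0.13, adjusted p = 1.04e-06). All 3 genes were called in each of the 12 fits that left out a library.

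For *Id1* and *Atoh8* the direction of the difference depends on the scale. *Id3* gained a mean of 47.3 CPM with PTH in WT cells and 22.8 CPM in Y428F cells, the same direction as on the log2 scale, but in a test on linear CPM (limma) its difference was not called (adjusted p = 0.0753). *Id1* gained 5.82 CPM in WT cells and 20.4 CPM in Y428F cells, and *Atoh8* 27.1 and 30.5 CPM, the opposite direction to their log2 differences, and neither was called on linear CPM. Of the 73 called genes, 40 were called with the same sign on linear CPM and 33 were not called there. *Id2* had a log2 difference of -0.90 (95% interval -1.33 to -0.46) that was not called (adjusted p = 0.072), with log2 fold changes of 2.51 (WT) and 1.61 (Y428F). Of the 20 genes in the list of BMP-SMAD targets, 15 were tested, and 3 were called lower and 0 higher, beside 0.243% and 0.170% of all genes tested. The list's median difference was -0.08, beside 0.00 over all genes tested, and 9 of its 15 differences were below 0. The gene lists were written with earlier results of these data known, so their counts and medians are a description. The feedback inhibitor *Smad7* had a difference of 0.42 (95% interval 0.18 to 0.67, adjusted p = 0.198) and *Smad6* one of -0.04 (-0.24 to 0.15). Among BMP ligands, receptors and SMADs, 13 of 19 genes were tested and 0 were called, with a median difference of 0.07. *Bmp4* was at 0.181 CPM in WT vehicle libraries and 26.2 CPM in Y428F vehicle libraries, and its difference in response was -1.02 with a wide interval (-2.24 to 0.19), and it was called on linear CPM by limma (adjusted p = 0.0318).

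**Figure D2:**
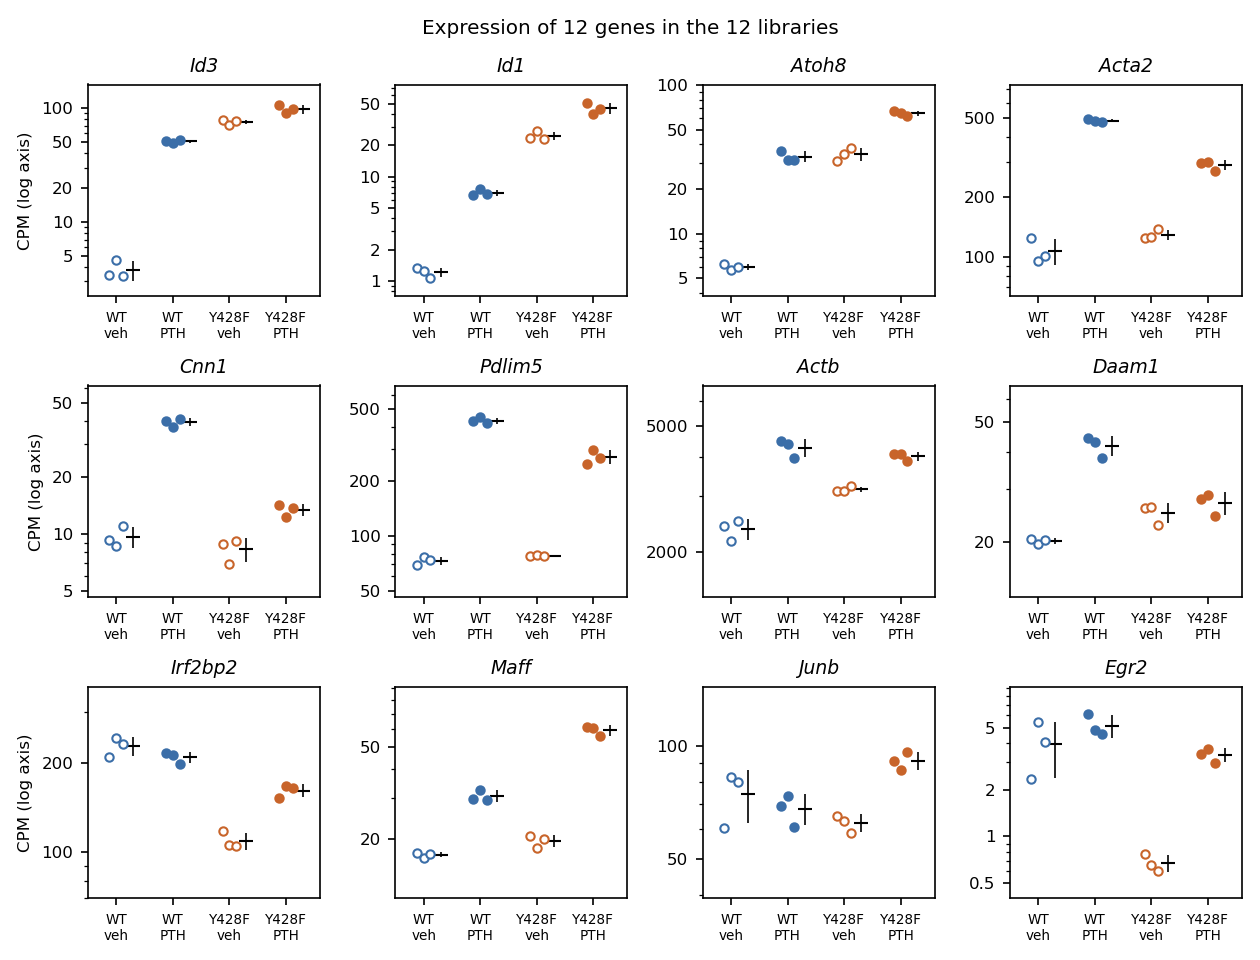
CPM (log axis) of 12 genes in each of the 12 libraries, with open circles for vehicle and filled circles for PTH, WT in blue and Y428F in orange, and a dash with a bar for the mean and SD of 3 libraries. *Id3*, *Id1* and *Atoh8* start higher in Y428F cells, *Acta2*, *Cnn1* and *Pdlim5* start near the WT level and rise less, and *Irf2bp2*, *Maff*, *Junb* and *Egr2* rise more.

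Most genes of the actin cytoskeleton and of SRF-MRTF rose with PTH in both lines, and 10 of them rose less in Y428F cells. All 28 genes of this list were tested. PTH upregulated 22 of them in WT cells and 20 in Y428F cells (7.42% and 6.61% of all genes tested), downregulated 0 in either, and gave median log2 fold changes of 0.88 and 0.60. For the difference in response, 10 were called lower (*Cnn1*, *Acta2*, *Pdlim5*, *Myl9*, *Tagln*, *Actg1*, *Actb*, *Pdlim7*, *Srf* and *Tpm1*) and 1 higher (*Egr2*), beside 0.243% and 0.170% of all genes tested. The median difference was -0.38, and 24 of the 28 values were below 0, where 8772 of the 17691 genes tested were. This list too was written with earlier results of these data known, so the contrast with all genes is a description and not independent support. Without Y428F PTH replicate 3, 6 members were called. *Cnn1* and *Acta2* show the pattern from overlapping starting levels. *Acta2*, smooth muscle alpha actin (chr19:34217737-34232990, minus strand), had 125, 94.6 and 101 CPM in WT cells with vehicle and 493, 486 and 481 CPM with PTH. Y428F cells had 124, 126 and 138 CPM with vehicle and 299, 301 and 270.4 CPM with PTH. The vehicle groups overlapped, although *Acta2* was called higher in Y428F cells with vehicle (log2 difference 0.28, adjusted p = 0.00734, edgeR's quasi-likelihood test). Every Y428F PTH library was below every WT PTH library. The log2 fold changes of 2.19 and 1.17 differed by -1.02 (standard error 0.11, adjusted p = 7.34e-05).

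*Cnn1*, the actin-binding calponin of smooth muscle (chr9:22010512-22020926, plus strand), had 9.26, 8.64 and 11.1 CPM in WT cells with vehicle and 39.9, 37.2 and 41.1 CPM with PTH. In Y428F cells the values were 8.82, 6.93 and 9.17 CPM with vehicle and 14.3, 12.3 and 13.7 CPM with PTH. The vehicle groups again overlapped, and the difference was -1.33 (standard error 0.16, adjusted p = 0.000222). *Pdlim5*, a PDZ-LIM scaffold of actin fibers, was upregulated in both lines, with log2 fold changes of 2.56 (WT) and 1.80 (Y428F). With PTH it had 418 to 449 CPM in WT libraries, all above the 249.8, 297 and 269.7 CPM of Y428F libraries, and with vehicle 69.0 to 76.4 and 77.6 to 78.5 CPM. Its difference was -0.76 (standard error 0.09, adjusted p = 0.000181). These 3 genes were called in each of the 12 fits that left out a library.

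Beta and gamma actin also rose less in Y428F cells, both from a higher starting level. *Actb*, beta actin, had 2412, 2162 and 2506 CPM in WT cells with vehicle and 4468, 4393 and 3952 CPM with PTH. Values in Y428F cells were 3124, 3111 and 3225 CPM with vehicle and 4092, 4085 and 3868 CPM with PTH, so the PTH groups overlapped. The difference was -0.51 (standard error 0.09, adjusted p = 0.0106). *Actg1*, gamma actin, had means of 2246 CPM in WT cells and 3347 CPM in Y428F cells with vehicle and of 4404 and 4536 CPM with PTH, a difference of -0.53 (adjusted p = 0.00139). On linear CPM neither *Actb* (adjusted p = 0.963) nor *Actg1* (adjusted p = 0.968) was called by limma. Their CPM gains with PTH were smaller in Y428F cells, 1911 (WT) and 862 (Y428F) for *Actb* and 2157 and 1189 for *Actg1*. That test takes part of each gene's spread from a trend over expression level, so its p-values do not show that the gains were alike. *Myl9*, the regulatory light chain of nonmuscle and smooth muscle myosin, rose in WT cells (means 102 and 238 CPM) and in Y428F cells (means 49.2 and 78.2 CPM), a difference of -0.55 (adjusted p = 0.000997). *Srf* itself rose in both lines, by 1.66 and 1.22 on the log2 scale, with a difference of -0.44 (95% interval -0.63 to -0.24, adjusted p = 0.0456). *Srf* was called in 4, *Tagln* in 3 and *Tpm1* in 4 of the 12 fits without a library, whereas *Actg1*, *Myl9* and *Pdlim7* were called in all 12 and *Actb* in 10. Skeletal alpha actin, *Acta1*, had log2 fold changes of 4.03 and 2.32 from under 1 CPM, and its difference of -1.71 was not called (95% interval -2.65 to -0.76, adjusted p = 0.16), although on linear CPM limma called it (adjusted p = 0.00932). *Vcl*, vinculin, was not called either (-0.42, -0.66 to -0.19). Actin genes share long stretches of near-identical sequence, and RSEM divides reads among them by estimation, so the split between them is uncertain.

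Promoter sequences of called genes are shown here because SRF binds a known element, the CArG box. The window searched ran from 250 bases before to 50 bases after the start of the canonical transcript of GENCODE vM39 on GRCm39, on both strands. A CArG box was present in 1.41% of the 17559 windows, in 11 of the 28 genes of the SRF-MRTF list, in 4 of the 43 genes with a lower response (*Srf*, *Stbd1* and *Tagln* among them) and in 1 of the 30 genes with a higher response (*Egr2*). The 200 bases before the start of these 4 named genes follow, 5′ to 3′ on the strand of the gene, with the CArG boxes in capitals. They are *Srf* at chr17:46867120-46867319 (minus), *Tagln* at chr9:45847405-45847604 (minus), *Stbd1* at chr5:92750691-92750890 (plus) and *Egr2* at chr10:67373492-67373691 (plus).
Srf: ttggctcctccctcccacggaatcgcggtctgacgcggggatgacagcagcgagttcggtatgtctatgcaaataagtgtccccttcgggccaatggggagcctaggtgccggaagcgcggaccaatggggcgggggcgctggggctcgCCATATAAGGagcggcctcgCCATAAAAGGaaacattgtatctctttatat
Tagln: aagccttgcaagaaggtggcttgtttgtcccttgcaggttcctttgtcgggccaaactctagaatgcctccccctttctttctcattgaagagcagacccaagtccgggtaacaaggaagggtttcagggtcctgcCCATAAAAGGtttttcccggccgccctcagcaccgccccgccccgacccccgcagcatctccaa
Stbd1: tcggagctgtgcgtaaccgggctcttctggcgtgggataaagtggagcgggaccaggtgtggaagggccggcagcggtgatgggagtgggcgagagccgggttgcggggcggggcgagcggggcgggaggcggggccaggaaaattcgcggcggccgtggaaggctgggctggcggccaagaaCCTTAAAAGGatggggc
Egr2: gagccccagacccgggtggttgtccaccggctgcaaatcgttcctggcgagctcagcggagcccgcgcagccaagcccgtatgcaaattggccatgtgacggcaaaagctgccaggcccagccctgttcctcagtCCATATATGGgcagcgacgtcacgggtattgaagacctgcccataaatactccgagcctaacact
*Srf* holds 2 boxes, which start at positions -51 and -31, and the others hold 1 each, at -64 in *Tagln*, -17 in *Stbd1* and -65 in *Egr2*. *Egr2* holds the element, as *Srf* and *Tagln* do, and its difference in response had the opposite sign to theirs. A match of letters is a description and not evidence of binding.

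The next genes called lower belong to none of the lists. *Palld*, the actin crosslinker palladin (chr8:61964458-62355796, minus strand), had 643, 685 and 616 CPM with PTH in WT cells and 392, 437 and 390.3 CPM in Y428F cells, from 227 to 252 and 253 to 265 CPM with vehicle. Its difference was -0.76 (standard error 0.09, adjusted p = 0.000132). *Nexn*, the actin filament protein nexilin, had 16.6, 17.2 and 16.1 CPM with PTH in WT cells and 4.60, 7.13 and 4.85 CPM in Y428F cells, from overlapping vehicle levels of 3.06 to 4.49 and 3.03 to 3.49 CPM. Its difference was -1.37 (standard error 0.24, adjusted p = 0.00997).

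*Daam1*, a formin that assembles actin filaments downstream of noncanonical WNT signals (chr12:71877692-72039150, plus strand), had 20.5, 19.7 and 20.3 CPM in WT cells with vehicle and 44.2, 43.1 and 38.2 CPM with PTH. In Y428F cells it had 26.0, 26.2 and 22.8 CPM with vehicle and 27.8, 28.8 and 24.3 CPM with PTH. The WT groups were far apart and the Y428F groups overlapped. The log2 fold changes of 1.05 and 0.11 differed by -0.94 (standard error 0.12, adjusted p = 0.000515), and the change in Y428F cells did not pass the test (adjusted p = 0.5). The small GTPase gene *Rhoj* had a difference of -0.75 (adjusted p = 0.00997). The methionine sulfoxide reductase gene *Msrb3* (-0.52, adjusted p = 0.00131) and the desmosomal plakophilin gene *Pkp2* (-0.56, adjusted p = 0.00997) completed the lower group under the stricter limit together with *Sox4*. *Nexn*, *Palld*, *Daam1*, *Rhoj*, *Msrb3*, *Pkp2* and *Sox4* were called in each of the 12 fits without a library. Chosen after their values were seen, 3 further genes called lower were *Itga5*, the fibronectin receptor subunit (-0.50), *Fermt2*, kindlin-2 (-0.37), and *Tgfb1i1*, the adaptor Hic-5 (-0.49), called in 6, 3 and 11 of the 12 fits.

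Across the 43 genes with a lower response the differences ran from -3.38 to -0.34 with a median of -0.56. PTH upregulated 39 of them in WT cells and downregulated 1, beside 7.42% and 6.01% of all genes tested. In Y428F cells it upregulated 27 and downregulated 6, beside 6.61% and 5.78%, and gave no call for 10. The median log2 fold change was 0.97 in WT cells and 0.38 in Y428F cells. The difference in response is built from the same libraries as these values, which are a description. Under PTH, every Y428F library was below every WT library for 30 of the 43 genes and above for 9, including *Id3*, *Id1*, *Atoh8* and *Pkp2*, beside 26.3% and 25.6% of all genes tested. With vehicle, 7986 genes differed between the lines (45.1%), 3966 higher in Y428F cells (22.4%) and 4020 lower (22.7%). Of the 43 genes, 19 were higher and 10 lower with vehicle, and 14 were not called. In CPM, 39 of the 43 differences kept the sign of the log2 difference and 4 had the other sign (*Atoh8*, *Id1*, *Pkp2* and *Txnip*).

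**Figure D3:**
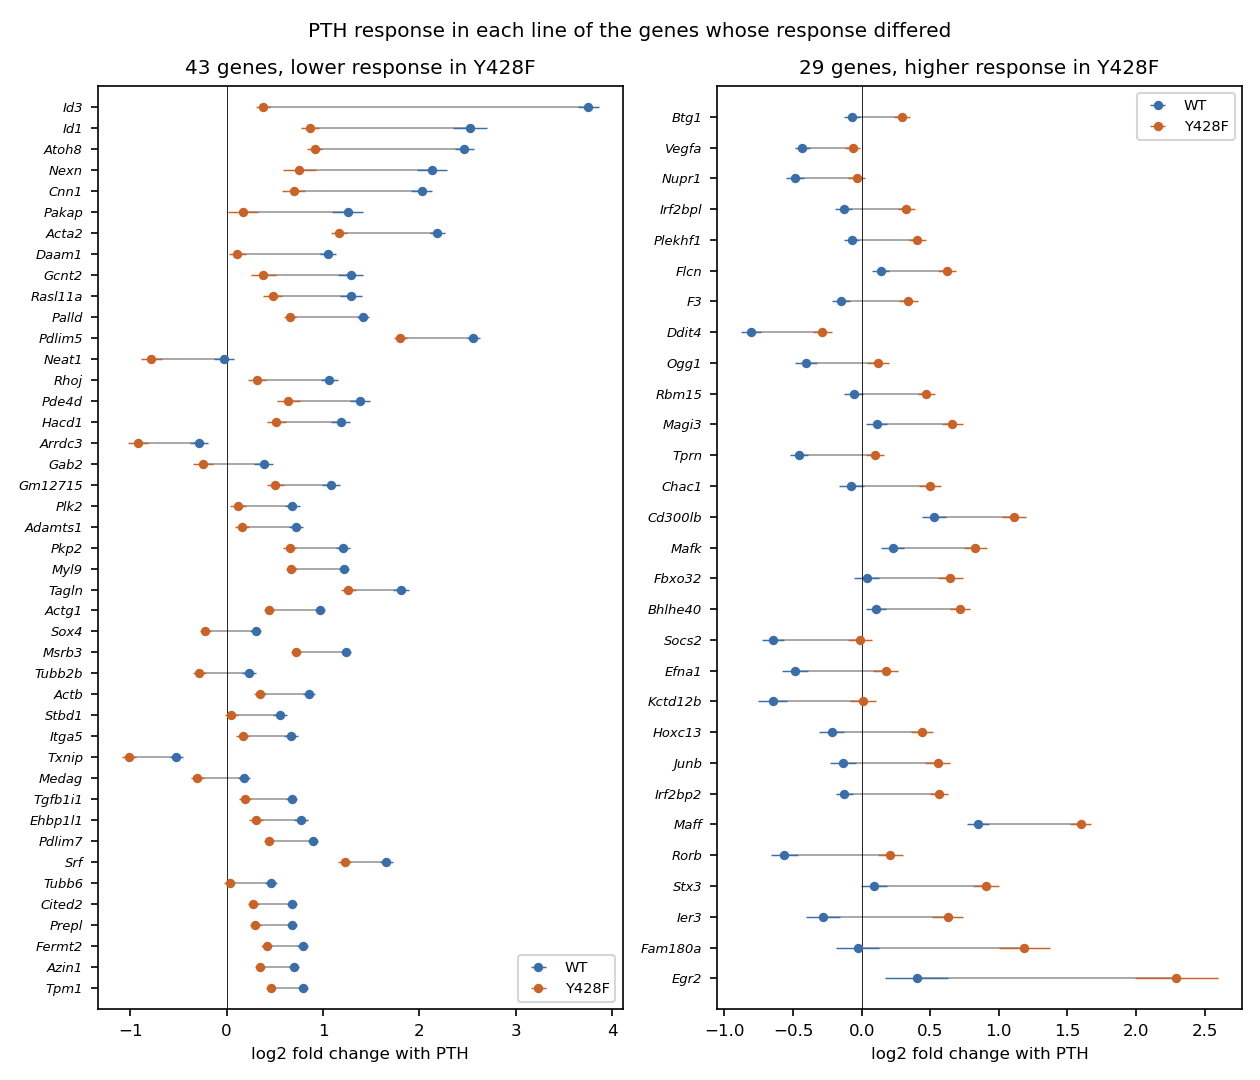
Log2 fold change with PTH in WT cells (blue) and Y428F cells (orange), with standard errors, for the 43 called genes with a lower response in Y428F cells (left) and 29 of the 30 with a higher response (right, *Gm49936* left out because it had 0 counts in Y428F vehicle libraries). On the left most genes rise in both lines and less in Y428F cells, and on the right most are near or below 0 in WT cells and above 0 in Y428F cells.

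In 4 genes of the lower group the log2 fold change was above 0 in WT cells and below 0 in Y428F cells. *Sox4*, a transcription factor gene (chr13:29132902-29137696, minus strand), had 414, 469.8 and 472 CPM in WT cells with vehicle and 540.1, 571 and 559 CPM with PTH. The Y428F libraries had 464, 458 and 461 CPM with vehicle and 378, 406 and 399.7 CPM with PTH. Neither pair of treatment groups overlapped, and PTH upregulated *Sox4* in WT cells (0.30, adjusted p = 0.00113) and downregulated it in Y428F cells (-0.22, adjusted p = 0.0128). The difference was -0.52 (standard error 0.08, adjusted p = 0.00356). The tubulin gene *Tubb2b* changed in both lines too, by 0.23 and -0.28 (adjusted p = 0.0366 and 0.00887). *Medag*, named after its values were seen, and the signaling adaptor gene *Gab2* had the same signs, but only 1 of the lines passed the test for each. *Gab2* had 0.38 in WT cells (adjusted p = 0.00955) and -0.25 in Y428F cells (adjusted p = 0.125), and *Medag* had 0.18 (adjusted p = 0.0599) and -0.30 (adjusted p = 0.00422). The difference in response was called for *Gab2* in 1, *Tubb2b* in 7 and *Medag* in 8 of the 12 fits without a library, and for *Gab2* in 5 of all 22 alternatives. A further 3 genes of the group fell more in Y428F cells. They were the noncoding RNA *Neat1* of paraspeckles (-0.03 and -0.78), *Txnip*, the thioredoxin inhibitor (-0.52 and -1.02), and *Arrdc3*, an alpha-arrestin (-0.28 and -0.92), called in 5, 4 and 1 of the 12 fits. *Txnip* lost 69.5 CPM in WT cells and 35.4 CPM in Y428F cells, the opposite order to its log2 difference.

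Of the 30 genes with a higher response, 19 had no called change in WT cells, beside 15316 of all 17691 genes tested. In WT cells PTH upregulated 2 and downregulated 9 of them, beside 7.42% and 6.01% of all genes tested. In Y428F cells it upregulated 21 and downregulated 1, beside 6.61% and 5.78%. Their median log2 fold change was -0.10 in WT cells and 0.49 in Y428F cells, and the median difference was 0.61. These values come from the same libraries as the difference in response and are a description. With vehicle, 15 of the 30 were lower and 8 higher in Y428F cells, beside 22.7% and 22.4% of all genes tested. A further 7 were not called. Under PTH, every Y428F library was above every WT library for 20 of the 30 and below for 7, beside 25.6% and 26.3%. *Irf2bp2*, a transcriptional corepressor gene (chr8:127313038-127320753, minus strand), had 211, 243 and 232 CPM in WT cells with vehicle and 217, 213 and 199 CPM with PTH. Y428F cells had 117, 106 and 104 CPM with vehicle and 152, 168 and 165 CPM with PTH. The WT treatment groups overlapped, the Y428F groups did not, and all Y428F libraries were below all WT libraries. The difference was 0.69 (standard error 0.09, adjusted p = 0.000635).

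*Maff*, a small MAF transcription factor gene (chr15:79230821-79243276, plus strand), rose in both lines and more in Y428F cells. It had 17.2, 16.5 and 17.2 CPM in WT cells with vehicle and 29.6, 32.7 and 29.4 CPM with PTH, and Y428F libraries had 18.2 to 20.6 CPM with vehicle and 61.2, 60.7 and 55.7 CPM with PTH. The difference was 0.75 (standard error 0.11, adjusted p = 0.00187), and its relative *Mafk* had one of 0.60 (adjusted p = 0.0199), called in 5 of the 12 fits without a library. *Stx3*, a syntaxin gene, had overlapping treatment groups in WT cells (means 17.7 and 18.8 CPM), whereas Y428F libraries had 13.1 to 13.9 CPM with vehicle and 23.0 to 27.4 CPM with PTH. Its difference was 0.81 (standard error 0.14, adjusted p = 0.00803). *Bhlhe40*, a repressor tied to the circadian clock (0.61, adjusted p = 0.00997), *Tprn*, taperin (0.55, adjusted p = 0.0074), and *Plekhf1*, which encodes an endosomal protein (0.48, adjusted p = 0.00997), were the other 3 under the stricter limit. Of these 6 genes, PTH downregulated *Tprn* in WT cells (-0.46, adjusted p = 5.47e-05). *Irf2bp2*, *Maff*, *Stx3*, *Bhlhe40* and *Tprn* were called in each of the 12 fits without a library, and *Plekhf1* in 11.

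Of the list members, *Egr2*, *Junb*, *Ier3*, *F3* and *Bhlhe40* were called higher. *Egr2*, a zinc finger factor gene, had 2.33, 5.40 and 4.02 CPM in WT cells with vehicle and 6.13, 4.80 and 4.54 CPM with PTH. Values in Y428F cells were 0.767, 0.657 and 0.601 CPM with vehicle and 3.38, 3.65 and 2.97 CPM with PTH. The Y428F groups were separate and the WT groups overlapped, and the level with PTH stayed below every WT PTH library. Its difference of 1.89 (standard error 0.39, adjusted p = 0.0289) was called in 2 of the 12 fits without a library. *Egr1* had a difference of 0.68 that was not called (95% interval 0.29 to 1.06, adjusted p = 0.183). *Junb*, an AP-1 subunit, had 60.3, 82.6 and 80.3 CPM in WT cells with vehicle and 69.3, 73.4 and 60.7 CPM with PTH, and 65.2, 63.1 and 58.6 CPM against 91.6, 86.5 and 96.5 CPM in Y428F cells. Its difference was 0.69 (standard error 0.13, adjusted p = 0.0215), called in 6 of the 12 fits. *Ier3*, an ERK-regulated survival gene, had a difference of 0.91 (standard error 0.17, adjusted p = 0.0169), called in 8 of the 12.

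The rest of the higher group were single genes outside the lists. *Ddit4*, an inhibitor of mTORC1, was downregulated in both lines, with -0.81 (WT) and -0.29 (Y428F) on the log2 scale. *Socs2*, a suppressor of cytokine signaling, was downregulated in WT cells (-0.65) and had -0.01 in Y428F cells (adjusted p = 0.955), a difference of 0.63 (adjusted p = 0.021). The stress-response gene *Chac1* (0.58), the muscle ubiquitin ligase gene *Fbxo32* (0.61), *Efna1*, an ephrin ligand (0.66), *Rorb*, an orphan nuclear receptor (0.77), and *Hoxc13* (0.66) were also called higher. Of the 12 fits without a library, *Chac1* was called in 4, *Fbxo32* in 2, *Efna1* in 3, *Rorb* in 11, *Hoxc13* in 6, *Socs2* in 6 and *Ddit4* in 7. *Vegfa*, the angiogenic growth factor, was named after its values were seen and had the smallest differences of the group together with *Btg1* (0.37 and 0.36), each called in 2 of the 12 fits. The largest fitted value belonged to the noncoding RNA *Gm49936*, with 0 counts in all 3 Y428F vehicle libraries and 12, 52 and 47 counts in the Y428F PTH libraries, so that the rise was at least 38.6-fold against a floor of 3 counts over the group. In WT cells it had 51, 22 and 59 counts with vehicle and 69, 69 and 36 with PTH. The fitted difference of 7.67 depends on the prior count, and the bound on the log2 scale is 4.74. *Gm49936* was called in 8 of the 12 fits.

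The full cAMP response element TGACGTCA, the CREB site, was present in 2.68% of all promoter windows on either strand, in 3 of the 30 genes with a higher response (*Flcn*, *Irf2bpl* and *Maff*) and in 1 of the 43 with a lower response (*Rhoj*). Its part TGACG, which the full element contains, was present in 26.86% of all windows, 12 of the 30 and 11 of the 43. The BMP SMAD letters GGCGCC were present in 15.37% of all windows, in 11 of the 43 and in 6 of the 30. Of the 3 BMP-SMAD targets called lower, *Id3* held them and *Id1* and *Atoh8* did not. The TEAD letters GGAATG were present in 13.55% of all windows, in 4 of the 43 and in 2 of the 30.

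In the Hippo and YAP-TEAD lists 1 gene each was called, *Arrdc3* lower and *F3* higher. *Yap1* (chr9:7932000-8004661, minus strand) had 181, 192 and 194 CPM in WT cells with vehicle and 245, 246 and 230.4 CPM with PTH. In Y428F cells it had 149.6, 141 and 149 CPM with vehicle and 171, 169 and 174 CPM with PTH. No groups overlapped, and PTH upregulated *Yap1* in WT cells (0.35, adjusted p = 0.000105) and in Y428F cells (0.22, adjusted p = 0.00739). The difference of -0.12 was not called, with a 95% interval of -0.28 to 0.03 (adjusted p = 0.811). These counts are of the mouse gene in the annotation, and how reads of the introduced YAP were assigned is not given in the sources used here. Of the 36 Hippo core and regulator genes, edgeR called 1 lower (*Arrdc3*) and 0 higher, beside 0.413% of all genes tested, and the median difference was 0.00. PTH upregulated 13 of the 36 in WT cells and 15 in Y428F cells (7.42% and 6.61% of all genes tested), and downregulated 3 and 4 (6.01% and 5.78%). *Arrdc3* had 15.1, 14.9 and 13.8 CPM in WT cells with vehicle, 12.1, 11.6 and 12.3 with PTH, 15.7, 16.4 and 14.1 in Y428F cells with vehicle and 8.60, 7.52 and 8.26 with PTH. Its difference was -0.64 (standard error 0.14, adjusted p = 0.0473), called in 1 of the 12 fits without a library and 6 of all 22 alternatives. It was not called with limma-voom, scaling by library totals alone, either replicate block or linear CPM.

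Other Hippo genes in the study's text, not all of which are given here, had intervals that included 0 or were not called. *Mob1a*, a LATS cofactor (0.00, 95% interval -0.14 to 0.15), and *Wwtr1*, which encodes the YAP relative TAZ (0.00, -0.15 to 0.14), had differences close to 0. The values were -0.26 (-0.45 to -0.07) for the upstream regulator *Frmd6*, 0.14 (-0.11 to 0.38) for *Wtip*, 0.07 (-0.12 to 0.26) for the kinase gene *Lats2* and -0.05 (-0.30 to 0.19) for *Tead1*. *Tead4* had a difference of -0.59 (-0.96 to -0.22, adjusted p = 0.282). Of 24 YAP-TEAD targets tested from a list of 25, edgeR called 1 higher (*F3*, tissue factor, 0.49, adjusted p = 0.0271) and 0 lower, 6 had an unadjusted p under 0.05, and the median was 0.02. Of all genes tested, 0.170% were called higher and 0.243% lower, and 1247 of the 17691 had an unadjusted p under 0.05. *F3* was called in 3 of the 12 fits without a library, and not on linear CPM or with the replicate block within each line. PTH upregulated 9 of the 24 in WT cells and 11 in Y428F cells, beside the same 7.42% and 6.61%. *Ccn2*, also called *Ctgf*, rose by 1.98 in WT cells and 2.04 in Y428F cells on the log2 scale, with an interval of the difference from -0.29 to 0.41. In CPM *Ccn2* gained 15.4 in WT and 59.0 in Y428F cells, a difference that was called on linear CPM by limma (adjusted p = 0.0023). *Ccn1*, also called *Cyr61*, had a difference of -0.45 (-0.69 to -0.21, adjusted p = 0.136) that DESeq2 called, *Ankrd1* one of -0.38 (-0.59 to -0.17, adjusted p = 0.169) and *Myc* one of -0.39 (-0.62 to -0.17, adjusted p = 0.188).

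Among cAMP-CREB targets 23 of 26 genes were tested, and *Junb* was called higher and *Pde4d* lower, with a median of 0.10. Of all genes tested, 0.170% were called higher and 0.243% lower. *Pde4d*, a phosphodiesterase that degrades cAMP, had 30.9, 37.0 and 32.5 CPM with PTH in WT cells and 9.21, 10.8 and 10.6 CPM in Y428F cells, from 11.7 to 13.9 and 6.06 to 7.39 CPM with vehicle. Its difference was -0.74 (standard error 0.16, adjusted p = 0.0381), called in 3 of the 12 fits without a library. The orphan receptor gene *Nr4a1* rose in both lines (0.76 and 1.04, interval of the difference -0.03 to 0.58), and so did *Ptgs2*, the prostaglandin synthase (0.98 and 1.30, -0.08 to 0.71). In the list of ERK feedback genes 21 were tested, *Ier3* was called higher, beside the same 0.170% of all genes tested, and the median was 0.11. *Dusp7*, an ERK phosphatase gene, had a difference of 0.41 that was not called (0.22 to 0.61, adjusted p = 0.0631). Of 18 clock genes tested, *Bhlhe40* was called higher, again beside 0.170% of all genes tested, and the median was -0.02.

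No gene was called by edgeR in the TGF-β (19 genes, median difference -0.03), WNT (24, -0.06), Notch (16, -0.16), osteoblast (14, 0.14), adipocyte (15, 0.05), cytokine and NF-κB (15, 0.17), PTH receptor signaling (27, -0.07) or cell cycle (20, 0.12) lists. In these lists and that of BMP ligands, receptors and SMADs, with 163 genes between them, 26 had an unadjusted p under 0.05, beside 1247 of all 17691, DESeq2 called 2 (*Tgif1* and *Rspo2*) and limma-voom called 0. With 0.413% of all genes called, no call in lists of this size does not show that their members responded alike. In the other lists DESeq2 also called *Id2*, *Vcl*, *Cnn2*, *Dusp7* and *Nr1d1*. Members given with values here and above that were not called were, outside the genes of the study's text, chosen after their values were seen. In the plot of differences by list, single members spread widely where counts were low. Of the TGF-β and WNT genes in the study's text, *Smad3* had a difference of -0.22 (-0.41 to -0.03, adjusted p = 0.626), *Tgfb1* one of 0.09 (-0.13 to 0.31), *Sfrp2* one of 0.05 (-0.15 to 0.24) and *Wnt5a* one of -0.02 (-0.26 to 0.21). *Rspo2*, a WNT agonist gene, had one of -0.42 (-0.65 to -0.20, adjusted p = 0.129).

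**Figure D4:**
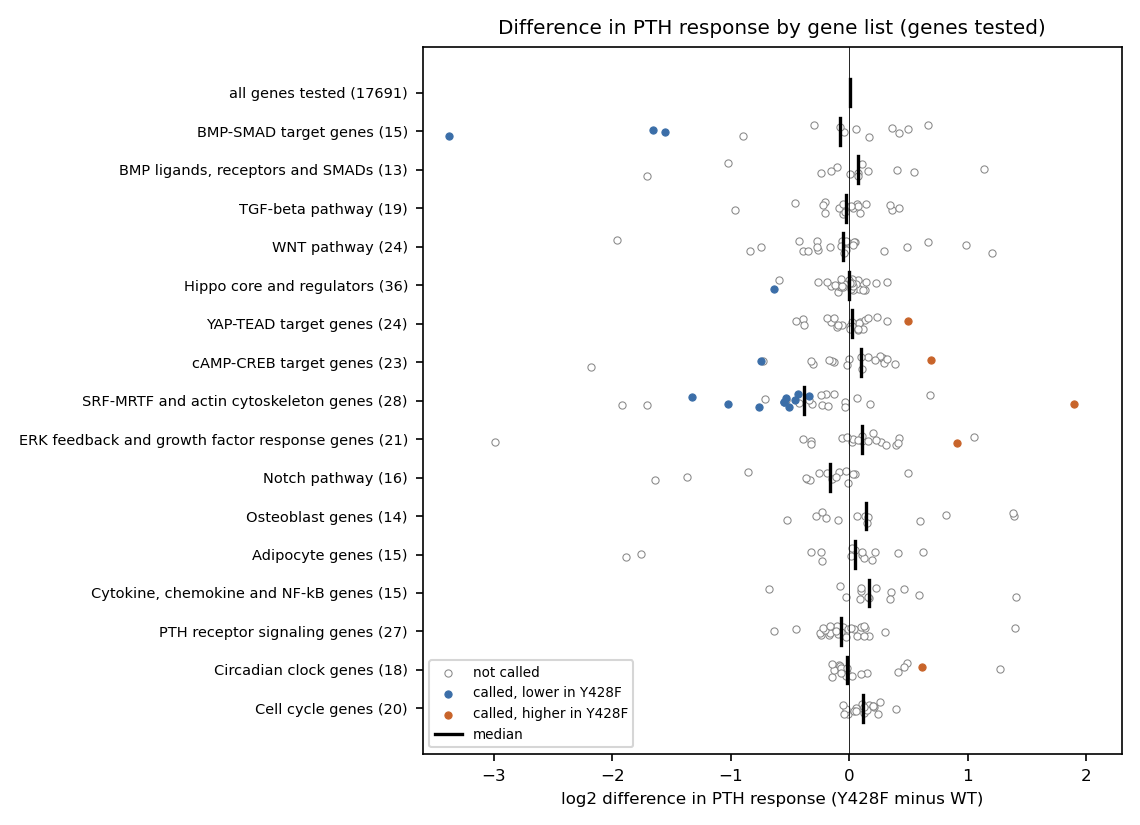
Log2 difference in PTH response (Y428F minus WT) of each gene tested in 16 gene lists, with the number tested in brackets, called genes in color and a bar for the median of each list (6 values lie outside the axes). The SRF-MRTF and actin list has the lowest median, -0.38, and holds 11 of the called genes. The lists were written with earlier results of these data known.

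The receptor gene *Pth1r* was close to the limit of detection in every group, with 0 to 6 counts per library in WT cells with vehicle, 1 to 8 with PTH, 3 to 10 in Y428F cells with vehicle and 4 to 10 with PTH. A difference in its response was not detectable at this depth (-0.63, 95% interval -3.10 to 1.83). *Src* had a difference of -0.10 (-0.31 to 0.12). Of the stromal markers, *Col1a2* was the most abundant, with 5787 to 13773 CPM, and *Col1a1* had 3617 to 7762 CPM, whereas *Lepr* had at most 1.06 CPM and *Thy1* 0 counts in all 12 libraries. The 10 stromal markers summed to a mean of 26813 CPM in WT cells with vehicle, 27418 with PTH, 18727 in Y428F cells with vehicle and 17123 with PTH. For markers of other cell types, the 10 hematopoietic genes summed to 2.75, 2.69, 8.74 and 9.92 CPM in the same order (most abundant *Hba-a1* with up to 4.99 CPM), the 8 endothelial genes to 4.04, 3.04, 10.2 and 7.68 CPM (*Cdh5*, up to 8.85 CPM), the 6 epithelial genes to 0.659, 0.512, 3.92 and 4.79 CPM (*Krt8*, up to 4.41 CPM) and the 8 skeletal muscle genes to 7.14, 6.82, 12.5 and 11.6 CPM (*Des*, up to 9.75 CPM). *Cd3e*, *Cldn5*, *Epcam*, *Krt5*, *Myod1* and *Myog* had 0 counts in all 12 libraries. None of the 29 markers tested was called for the difference in response by edgeR, DESeq2 or limma-voom. Of all genes tested, edgeR called 0.413%. An unadjusted p under 0.05 was found for 5 of the 29 markers, beside 1247 of all 17691 genes. The part of these marker levels in the called genes was not tested.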

How the data were processed

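Polyadenylated RNA of 12 libraries was sequenced, 3 for each of 4 groups, 2 h after 50 nM PTH or PBS. By the study's methods the authors aligned reads to GRCm39 with STAR 2.7.10b and the GENCODE vM31 annotation and estimated reads per gene with RSEM, so the deposited values are expected counts per gene, of which 6.32% were not whole. Reads shared by near-identical genes are divided by estimation. They were rounded here, and 0 columns belonged to no sample. Names and positions came from GENCODE vM39 (56236 of 56980 IDs matched, 744 not), as did the promoter windows, read from GRCm39.

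The 17691 genes totalling 10 counts or more entered edgeR 4.0.16 in R 4.3.3 with TMM scaling (factors 0.949 to 1.04), 1 coefficient per group, quasi-likelihood tests and Benjamini-Hochberg adjustment. CPM are counts relative to the TMM-scaled library total, and 95% intervals come from the fitted standard errors. Genes with an adjusted p under 0.05 were called, and a stricter limit asked for an adjusted p under 0.01 and a log2 value beyond 0.3. The fits were run on simulated data with changes planted only in genes of at least 2 CPM. The outcome is not given here, so no error rate is drawn from it. Eligible to be named were the genes under the stricter limit, called members of the lists, the 25 other called genes of at least 2 CPM with the largest differences, genes in the study's text, *Pth1r*, *Src*, *Acta1*, *Pdlim5* and cell type markers. Not all genes in the study's text and not all markers are given with values. The comparison, lists and rules were chosen with earlier results of these data known. Counts and medians of lists carry no test.

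Alternatives were DESeq2 1.42.0, limma 3.58.1 with voom, other scalings, filters and thresholds, a robust fit, replicate blocks, linear CPM and leaving out each library. Libraries of a group differed by more than sampling noise (chi-square per degree of freedom 2.87 to 14.2). 1 promoter sequence and 1 marker are not reported here.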

Additional observations from a re-analysis of the deposited data

Results flagged for a closer look

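Each of the 73 genes was called by the test of the difference in PTH response itself, at a limit that leaves room for false calls. The values are PTH responses (log2) of Y428F cells minus those of WT cells. The lower response in Y428F cells was farthest from 0 in *Id3* (-3.38), *Id1* (-1.66), *Atoh8* (-1.55), *Nexn* (-1.37), *Cnn1* (-1.33), *Pakap* (-1.08), *Acta2* (-1.02), *Daam1* (-0.94), *Gcnt2* (-0.91), *Rasl11a* (-0.81), *Palld* (-0.76) and *Pdlim5* (-0.76). It was smaller in size in *Neat1* (-0.76), *Rhoj* (-0.75), *Pde4d* (-0.74), *Hacd1* (-0.67), *Arrdc3* (-0.64), *Gab2* (-0.63), *Gm12715* (-0.58), *Plk2* (-0.57), *Adamts1* (-0.57), *Pkp2* (-0.56), *Myl9* (-0.55) and *Tagln* (-0.55). The remaining lower differences were those of *Actg1* (-0.53), *Sox4* (-0.52), *Msrb3* (-0.52), *Tubb2b* (-0.52), *Actb* (-0.51), *Stbd1* (-0.51), *Pdlim7* (-0.46), *Srf* (-0.44) and *Tpm1* (-0.34). A higher response in Y428F cells was measured for *Egr2* (1.89), *Fam180a* (1.22), *Ier3* (0.91), *Stx3* (0.81), *Rorb* (0.77), *Maff* (0.75), *Irf2bp2* (0.69), *Junb* (0.69), *Hoxc13* (0.66), *Kctd12b* (0.66), *Efna1* (0.66), *Socs2* (0.63) and *Bhlhe40* (0.61). Smaller higher differences were those of *Fbxo32* (0.61), *Mafk* (0.60), *Cd300lb* (0.58), *Chac1* (0.58), *Tprn* (0.55), *Magi3* (0.55), *Rbm15* (0.53), *Ogg1* (0.53), *Ddit4* (0.52), *F3* (0.49) and *Plekhf1* (0.48). The remaining 16 called genes are named after their values were seen, with lower values for *Itga5* (-0.50), *Txnip* (-0.49), *Medag* (-0.49), *Tgfb1i1* (-0.49), *Ehbp1l1* (-0.47), *Tubb6* (-0.43), *Cited2* (-0.40), *Prepl* (-0.38), *Fermt2* (-0.37) and *Azin1* (-0.35) and higher values for *Btg1* (0.36), *Vegfa* (0.37), *Nupr1* (0.45), *Irf2bpl* (0.46), *Flcn* (0.48) and *Gm49936* (7.67), the last a fitted value against 0 counts. *Gm12715* is a processed pseudogene and the symbol *Pakap* has 2 gene IDs, so their reads may be shared with other genes. No cause of these differences was tested.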

How the results depend on the processing

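All 73 called genes kept the sign of their log2 difference under every alternative on that scale, and 21 of them, all under the stricter limit, were called in all 21 such alternatives. On linear CPM, 117 genes were called, but 33 of the 73 were not, among them *Id3* (adjusted p = 0.0753), *Actb* and *Actg1*, and the sign was opposite for *Atoh8* (3.31 CPM), *Pkp2* (0.693 CPM), *Id1* (14.6 CPM) and *Txnip* (34.1 CPM). That scale weighs a gain by its absolute size. The count of 73 became 123 with DESeq2, 216 with no filter on low counts and 22 under the stricter limit, and lay between 58 and 103 in the other fits with all libraries. The stricter limit left 1073 PTH-changed genes for WT and 942 for Y428F cells. Leaving out 1 library gave 24 to 89 genes for the difference in response, with 24 without Y428F PTH replicate 3, 31 and 32 without Y428F vehicle replicates 2 and 1, 38 without replicate 3, 35 and 38 without WT PTH replicates 1 and 2, 46 without WT vehicle replicate 3 and 89 without WT PTH replicate 3. It gave 1591 to 2611 for PTH in WT cells, 1435 (without Y428F vehicle replicate 1) to 2515 for PTH in Y428F cells and 7144 to 8158 between the lines with vehicle. Called members of the SRF-MRTF list numbered 6 to 13, of the BMP-SMAD targets 3 to 4, of the Hippo list 0 to 1 and of the YAP-TEAD targets 0 to 3. With 1 library fewer, the fit has fewer samples, and no other cause was tested.

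Scaling by library totals alone gave 74 called differences but moved the upregulated share of PTH-changed genes from 55.2% to 37.3% in WT cells and from 53.4% to 38.1% in Y428F cells. Replicate numbers come from the library titles and share only a number. Libraries with the same number had a mean residual correlation of 0.0019 (18 pairs, -0.031 to 0.037, 0 over 0.1). The replicate block over all libraries gave 76 called genes and the replicate block within each line 58, and the latter leaves no test between the lines. Depth limits what can be seen for genes with few counts, such as *Pth1r*.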
